A study of Mus musculus with 6 samples.

Results

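This report describes Bcat1, the cytosolic branched-chain aminotransferase, together with 9 other genes of branched-chain amino acid breakdown, in mouse melan-a lines with and without a mutant Kit receptor. The 10 genes were taken by symbol from an array that names 19505 genes, and each had 1 probe set. Bcat1 was picked because it was much higher in both Kit lines than in the vector line, so its values against that line are given as a description with no test. The other 9 genes were taken for their place in the pathway. The study measured total RNA on Affymetrix Clariom S arrays, with 2 arrays for each of 3 lines. The line mVec carries an empty vector, titled CD516B2, and is labelled as a melanocyte. The lines mKitK641E(T), titled C3#, and mKitK641E(PT), titled hi exp, express a Kit receptor bearing the K641E change, and their labels call them melanoma. They are called T and PT below; the labels do not explain these letters and titles. All 3 lines descend from immortalized melan-a cells of C57BL/6J origin and were grown untreated in RPMI with 10% serum. Each group is a single line, and nothing says that its 2 arrays came from separate cultures, so the errors and p-values measure the spread between arrays, which may be technical.

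Leucine, isoleucine and valine are the branched-chain amino acids. Their breakdown starts with a reversible transamination, carried out by Bcat1 in the cytosol and Bcat2 in mitochondria, that moves the amino group to 2-oxoglutarate and gives glutamate and a branched-chain keto acid. The mitochondrial keto acid dehydrogenase complex then removes a carboxyl group in the committed step, under the control of an inhibiting kinase and an activating phosphatase. In the leucine arm the product passes on to isovaleryl-CoA dehydrogenase and methylcrotonyl-CoA carboxylase. BCAT1 is known for high expression in several tumour types, whereas many adult tissues rely on BCAT2.

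The deposited log2 values covered 22206 gene probe sets. A value was counted as above background when it exceeded a limit set at the 95th percentile of that array's 5222 negative controls, which lay between 8.74 and 9.16; between 29.0% and 32.6% of gene probe sets did so. A group is called at background when neither of its arrays passed that limit, which does not show that the gene is silent. The 99th percentile of the same controls lay between 12.15 and 13.07. When 1 of the 2 groups compared was at background, the fold is a lower bound ("at least"), and when both were, none is given. Errors after ± are standard errors of the limma fit to all 6 arrays, and a difference was called at a Benjamini-Hochberg adjusted p under 0.05 over all probe sets. In bulk RNA, fewer cells of a type and less RNA per cell cannot be told apart. The melanocyte label was not borne out by its markers: 8 of 10, among them Sox10, Tyr, Tyrp1, Dct, Pmel and Mlana, were at background in all 3 groups, and Gpnmb was bright in each (mean 13.82 for T, 12.84 for PT and 15.27 for mVec). Mitf was above the limit on both T arrays (9.01 and 9.10), and Slc24a5 was at background although it differed (mean 4.01 for T, 4.18 for PT and 7.44 for mVec).

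**Figure D1:**
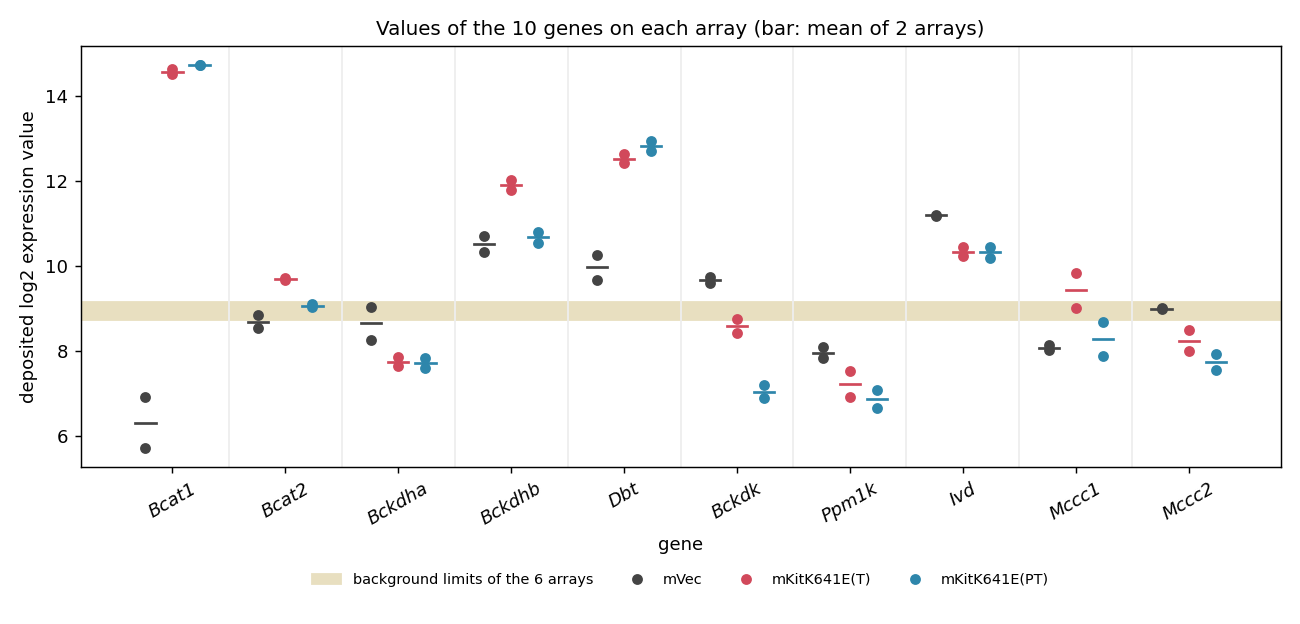
Deposited log2 values (vertical axis) of the 10 genes (horizontal axis) on each of the 6 arrays; points are arrays, bars are means of 2 arrays, and the shaded band spans the background limits of the 6 arrays, 8.74 to 9.16. Bcat1 stands at 5.73 and 6.92 in mVec and between 14.51 and 14.73 in the Kit lines, while no other gene of the 10 is shifted by more than 3 log2 units.

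Bcat1 was at background in mVec and bright in both Kit lines. Its log2 values were 5.73 and 6.92 in mVec, 14.63 and 14.51 in T, and 14.73 and 14.73 in PT. The 4 Kit arrays lay far above both mVec arrays and close to each other. The log2 difference was 8.24 ± 0.34 for T minus mVec and 8.40 ± 0.34 for PT minus mVec. As folds, these are at least 47.4 in T and at least 52.9 in PT, because mVec was at background. Among all probe sets Bcat1 had the rise of rank 2 in T and of rank 5 in PT, the property it was picked for. The size of the bound hangs on the background limit: with the 99th percentile of the negative controls, the bounds were 3.28 and 3.66. Bcat1 was picked for a rise in both Kit lines, so the comparison between them is also a description with no test. T minus PT was -0.16 ± 0.34, with a 95% interval from -0.92 to 0.60. The wide spread between the mVec arrays sets much of this error.

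Markers of another cell type differed between the same groups as Bcat1. Of 9 measured fibroblast markers, 7 were called lower and 1, the collagen Col1a2, higher in each Kit line (4.16 ± 0.20 in T and 4.15 ± 0.20 in PT, named after its values were seen). Over all probe sets, 15.5% were called lower in T and 18% in PT, and 16.9% and 17.9% were called higher. The sum of the 9 markers on a linear scale was 177636 to 197796 in mVec, 5969 to 6723 in T and 3724 to 4648 in PT. Lum and Thy1 of this list were at background on every array. The log2 difference from mVec was -9.54 ± 0.28 for T and -9.70 ± 0.28 for PT in the matrix protein Postn, -7.30 ± 0.34 and -9.32 ± 0.34 in the protease Fap, -8.53 ± 0.26 and -9.07 ± 0.26 in the proteoglycan Dcn, and -6.66 ± 0.27 and -9.03 ± 0.27 in the collagen Col3a1. Each of these was called, the highest limma adjusted p being 2.93e-07 for Fap in T. The part of this difference in the values of Bcat1 and of the other genes was not tested. All 6 keratinocyte and 6 leukocyte markers were at background on every array. Trp63 of the keratinocyte list was called lower in T below the limit (-1.56 ± 0.50, adjusted p = 0.0387), a call lost in 5 alternatives, for example without mVec replicate 1 (0.288) and without T replicate 2 (0.280). Of 5 endothelial markers, Cdh5 was above the limit, in mVec alone (10.77 and 10.55).

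RefSeq annotates 2 start sites for Bcat1 on the minus strand of chromosome 6. The letters around them are shown because Bcat1 is the gene picked for this report. The motifs are those of Myc and Atf4, described activators of BCAT1. Of 10 listed regulators, 3 were called higher and 2 lower in T, and 2 higher and 1 lower in PT. Over all probe sets, 16.9% were called higher and 15.5% lower in T, and 17.9% and 18% in PT. Myc and Atf4 were among the regulators called higher in both lines (values further on). Whether either acts on Bcat1 in these lines was not tested. Each run covers 250 bases before the start site and 20 after it, in build GRCm38.p6. Searched on both strands were CACGTG, the E-box of Myc, its variant CACGCG, and TGATGNAAN, a form of the Atf4 element; matches are in capitals.
Bcat1 upstream start, chr6:145076138-145076407, minus strand: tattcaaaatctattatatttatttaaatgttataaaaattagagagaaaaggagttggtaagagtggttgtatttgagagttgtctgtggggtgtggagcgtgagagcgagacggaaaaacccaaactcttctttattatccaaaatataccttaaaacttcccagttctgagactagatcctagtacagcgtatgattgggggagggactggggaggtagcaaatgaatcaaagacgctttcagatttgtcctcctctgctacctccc
Bcat1 downstream start, chr6:145048793-145049062, minus strand: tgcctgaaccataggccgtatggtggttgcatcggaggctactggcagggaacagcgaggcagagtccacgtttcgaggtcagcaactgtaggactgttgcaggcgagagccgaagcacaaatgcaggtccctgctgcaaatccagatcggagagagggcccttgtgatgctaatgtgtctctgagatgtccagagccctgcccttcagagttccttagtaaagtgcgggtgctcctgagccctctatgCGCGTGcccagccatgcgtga
Mccc2 start, chr13:100015620-100015889, minus strand: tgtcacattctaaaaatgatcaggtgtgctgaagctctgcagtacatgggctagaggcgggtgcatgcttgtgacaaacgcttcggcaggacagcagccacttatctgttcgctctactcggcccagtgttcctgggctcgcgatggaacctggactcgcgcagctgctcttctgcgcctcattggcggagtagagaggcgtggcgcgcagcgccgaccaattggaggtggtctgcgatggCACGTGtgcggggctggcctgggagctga

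The upstream Bcat1 window held none of the 3 motifs. The downstream one held CACGCG once, read on the opposite strand as CGCGTG and starting 1 base before the start site. Of the 12 windows of the 9 genes with an entry, the Mccc2 window, shown for that reason, was the 1 with CACGTG, starting 9 bases before the start site, and 0 held TGATGNAAN. Among all 32851 windows of this length, 6.57% held CACGTG, 8.33% held CACGCG and 3.67% held TGATGNAAN. A match is a run of letters and not a measured binding site.

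Bcat2, the mitochondrial aminotransferase, differed far less. Its log2 values were 8.54 and 8.85 in mVec, 9.72 and 9.68 in T, and 9.10 and 9.04 in PT. Both T arrays were above their limits, 1 of the PT arrays was, and mVec was at background. Bcat2 was higher in T than in mVec by 1.01 ± 0.21 (limma adjusted p = 0.00386, at least 1.62-fold). In PT the difference was 0.38 ± 0.21, with a 95% interval from -0.09 to 0.84 (limma adjusted p = 0.211); it passed after quantile normalization (0.67, adjusted p = 0.0347). T minus PT was 0.63 ± 0.21 (limma adjusted p = 0.102), which passed among probe sets above the median mean (0.0457).

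The subunits of the keto acid dehydrogenase complex did not share a direction. Dbt, the E2 subunit that carries the acyl group, was at 10.28 and 9.67 in mVec, 12.64 and 12.42 in T, and 12.96 and 12.70 in PT. All Kit arrays were above both mVec arrays, and every array was above background. Dbt rose 5.88-fold in T (2.55 ± 0.25, limma adjusted p = 3.36e-05) and 7.25-fold in PT (2.86 ± 0.25, adjusted p = 1.14e-05). T minus PT was -0.30 ± 0.25, with an interval from -0.87 to 0.26 (limma adjusted p = 0.536).

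Bckdhb encodes the beta chain of the decarboxylating E1 enzyme. Its values were 10.34 and 10.70 in mVec, 11.80 and 12.04 in T, and 10.55 and 10.81 in PT, so that the T arrays stood apart and the PT and mVec arrays overlapped. It rose 2.64-fold in T (1.40 ± 0.23, limma adjusted p = 0.000880) and stood at 0.16 ± 0.23 in PT (adjusted p = 0.671, interval -0.35 to 0.67). It was 2.37-fold higher in T than in PT (1.24 ± 0.23, limma adjusted p = 0.0110). That difference was 1.13 without T replicate 2 (adjusted p = 0.0762) and 1.11 without PT replicate 1 (0.0917), and was no longer called in either case.

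Bckdha, the alpha chain of E1, was above its limit on 1 of the 6 arrays, mVec replicate 2. The values were 8.27 and 9.05 in mVec, 7.87 and 7.66 in T, and 7.60 and 7.85 in PT. The Kit arrays were all at background and below both mVec arrays. No fold is given, since the mVec mean itself was under the limit. Bckdha was called lower in T (-0.90 ± 0.28, limma adjusted p = 0.0320) and in PT (-0.93 ± 0.28, adjusted p = 0.0245). Each call was lost in 5 of 10 alternatives, among them centring each array on its median (adjusted p = 0.0709 in T and 0.0539 in PT) and leaving out mVec replicate 2 (0.274 and 0.220), T replicate 1 (0.0615), T replicate 2 (0.146), PT replicate 1 (0.140) or PT replicate 2 (0.0571). The E3 subunit Dld, which this complex shares with the pyruvate and 2-oxoglutarate dehydrogenases and which is named here after its values were seen, was 3.23-fold higher in T (1.69 ± 0.20, limma adjusted p = 0.000124) and 3.05-fold higher in PT (1.61 ± 0.20, adjusted p = 0.000138).

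Both regulators of the complex were lower in PT than in mVec. Bckdk, the kinase that switches the complex off, was at 9.60 and 9.74 in mVec, 8.42 and 8.75 in T, and 6.89 and 7.20 in PT. The 3 groups did not overlap, with mVec highest and PT lowest. Bckdk fell by 1.09 ± 0.22 in T (limma adjusted p = 0.00376, 2.12-fold), where 1 array was still above its limit, and by 2.62 ± 0.22 in PT (adjusted p = 8.93e-06, at least 1.58-fold lower). T minus PT was 1.54 ± 0.22 (limma adjusted p = 0.00438), and this difference and both of those from mVec were called in all 10 alternatives. No fold is given for T minus PT. PT was at background, and the T mean of 8.59 was under the limits of both T arrays (8.93 and 8.74).

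Ppm1k, the phosphatase that switches the complex on, was at background on every array, with 8.09 and 7.85 in mVec, 7.53 and 6.94 in T, and 6.67 and 7.09 in PT. The mVec arrays were the highest, but no fold is given below the limit. It was called lower in PT (-1.09 ± 0.26, limma adjusted p = 0.00823). The PT call was lost without PT replicate 1 (adjusted p = 0.0741), without mVec replicate 1 (0.0654) and after quantile normalization (0.0593). The T value was -0.74 ± 0.26 (limma adjusted p = 0.0595); it passed without T replicate 1 (0.0232) and among probe sets above the median mean (0.0309).

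In the leucine arm, Ivd was lower in both Kit lines. Ivd, isovaleryl-CoA dehydrogenase, was above background on every array, at 11.18 and 11.22 in mVec, 10.45 and 10.24 in T, and 10.20 and 10.47 in PT. The T and PT arrays overlapped each other and lay below mVec. Ivd was 1.81-fold lower in T (-0.85 ± 0.21, limma adjusted p = 0.0104) and 1.83-fold lower in PT (-0.87 ± 0.21, adjusted p = 0.00826). Leaving out T replicate 2 (adjusted p = 0.0569), mVec replicate 1 (0.0562) or mVec replicate 2 (0.0648) ended the T call, and leaving out PT replicate 1 (0.0628) or mVec replicate 2 (0.0536) ended the PT call.

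The 2 subunits of methylcrotonyl-CoA carboxylase moved in opposite directions in T. Mccc1, the biotin-carrying alpha subunit, was at 8.15 and 8.03 in mVec, 9.03 and 9.84 in T, and 7.90 and 8.70 in PT, above background on both T arrays and on none of the others. It rose in T by 1.34 ± 0.33 (limma adjusted p = 0.0101, at least 1.35-fold), a call lost without T replicate 2 (0.0828) and without mVec replicate 2 (0.0556). In PT it was 0.21 ± 0.33 from mVec (limma adjusted p = 0.696, interval -0.53 to 0.95). T minus PT was 1.13 ± 0.33 (adjusted p = 0.0679) and passed in 4 alternatives, with adjusted p from 0.0352 to 0.0453.

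Mccc2, the beta subunit, was at 8.999 and 9.01 in mVec, 8.01 and 8.50 in T, and 7.56 and 7.94 in PT. Both Kit lines were at background and below mVec, where 1 array was above its limit. It was called lower in T (-0.75 ± 0.24, limma adjusted p = 0.0377, at least 1.13-fold) and in PT (-1.25 ± 0.24, adjusted p = 0.00224), and the PT call held in all 10 alternatives. The T call ended when T replicate 1 (adjusted p = 0.187), mVec replicate 1 (0.136) or mVec replicate 2 (0.141) was left out, after centring on the median (0.117) and after quantile normalization (0.0522).

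Counted together, the 9 genes other than Bcat1 were called as follows. In T, 4 were higher than in mVec (Bcat2, Bckdhb, Dbt and Mccc1), 4 were lower (Bckdha, Bckdk, Ivd and Mccc2) and 1 was not called, against 32.4% of all probe sets called, 16.9% higher and 15.5% lower. In PT, 1 was higher (Dbt), 5 were lower (Bckdha, Bckdk, Ppm1k, Ivd and Mccc2) and 3 were not called, against 35.9% of all probe sets, 17.9% higher and 18% lower. Much of that background is made of dim probe sets: among those with a mean above the median, where all 10 genes lie, 56.5% were called in T, 62.3% in PT and 15.6% between T and PT. The arrays of the groups compared did not overlap for 9 of the 9 genes in T (61.6% of all probe sets), for 7 in PT (64.8%) and for 6 between T and PT (50.1%). The median log2 difference of the 9 genes was -0.74 in T and -0.87 in PT, beside 0.01 and 0.08 over all probe sets. Each median of the 9 is the value of a single gene. In T it is that of Ppm1k, at background on every array, with the 4 genes called higher above it and the 4 called lower below it. In PT it is that of Ivd. Of all calls, 52.3% in T and 49.9% in PT were higher, and 62.3% and 60.3% once arrays were centred on their medians. These comparisons share the mVec arrays and are not independent. Leaving out T replicate 2 lowered the count in T from 8 to 5, leaving out mVec replicate 2 lowered it to 4, and leaving out PT replicate 1 lowered the count in PT from 6 to 3. Between T and PT, 2 of the 9 genes were called, Bckdhb and Bckdk, both higher in T, against 8.36% of all probe sets in either direction, 5.67% higher and 2.7% lower in T. That count was 1 without T replicate 2 or PT replicate 1.

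**Figure D2:**
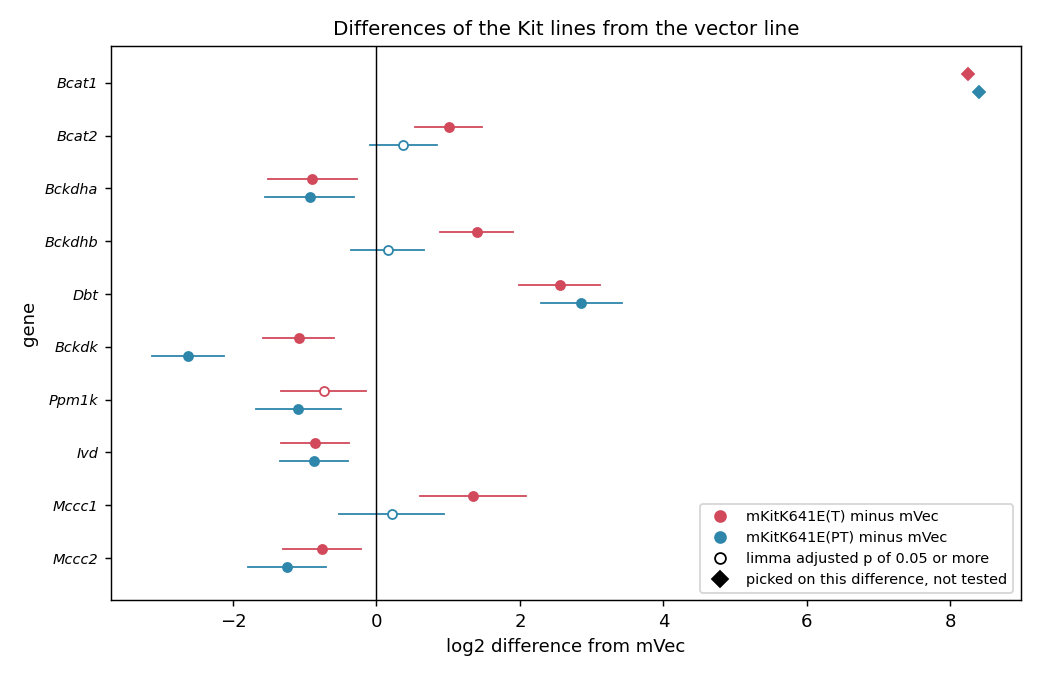
Log2 differences of T and PT from mVec (horizontal axis) for the 10 genes (vertical axis); points are estimates from 2 arrays per group, lines are 95% intervals of the limma fit, and open points were not called. Bcat1, drawn as diamonds without an interval because it was picked on these differences, lies at 8.24 and 8.40, while the other genes lie between -2.62 and 2.86.

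The remaining steps of branched-chain amino acid breakdown included both higher and lower genes in the Kit lines. Of 19 measured genes, 4 rose and 7 fell in T and 8 were not called, with a median difference of -0.43; in PT 3 rose, 10 fell and 6 were not called, with a median of -0.75. Over all probe sets 32.4% were called in T and 35.9% in PT, and 56.5% and 62.3% among those with a mean above the median, so the number called in this list lies near that of probe sets of like brightness. Abat, the 4-aminobutyrate aminotransferase that also acts in valine breakdown, was at 9.68 and 9.65 in mVec and at background in the Kit lines. It was at least 1.78-fold lower in T (-3.81 ± 0.24, limma adjusted p = 2.06e-06) and at least 1.57-fold lower in PT (-4.03 ± 0.24, adjusted p = 1.01e-06). Aldh6a1, the semialdehyde dehydrogenase of valine breakdown, was at 10.52 and 10.38 in mVec, 8.85 and 8.84 in T, and 7.49 and 7.44 in PT. Aldh6a1 fell 3.05-fold in T (-1.61 ± 0.20, limma adjusted p = 0.000144) and at least 2.71-fold in PT (-2.99 ± 0.20, adjusted p = 1.74e-06). Slc25a44, the carrier that brings branched-chain amino acids into mitochondria, went the other way, at 10.21 and 9.87 in mVec, 12.41 and 12.97 in T, and 12.31 and 12.77 in PT. It rose 6.28-fold in T (2.65 ± 0.27, limma adjusted p = 4.02e-05) and 5.68-fold in PT (2.50 ± 0.27, adjusted p = 4.38e-05).

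Propionyl-CoA carboxylase, which takes up the end product of isoleucine and valine breakdown, also had subunits that differed in opposite directions. The beta subunit Pccb was at 9.31 and 9.37 in mVec, 7.51 and 7.86 in T, and 6.29 and 6.50 in PT, both Kit lines being at background. It was at least 1.42-fold lower in T (-1.65 ± 0.22, limma adjusted p = 0.000218) and at least 1.25-fold lower in PT (-2.94 ± 0.22, adjusted p = 3.45e-06). The alpha subunit Pcca, named here after its values were seen, was 3.35-fold higher in T (1.75 ± 0.24, limma adjusted p = 0.000292) and 2.83-fold higher in PT (1.502 ± 0.24, adjusted p = 0.000648). Between the Kit lines, 8 of the 19 genes were called higher in T and 0 lower, against 5.67% of all probe sets higher and 2.7% lower (15.6% in either direction among those with a mean above the median). The median was 0.33, beside -0.04 over all probe sets. That count fell to 1 without T replicate 2 or PT replicate 1 and to 4 without PT replicate 2.

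Among carriers that move leucine across the plasma membrane, the 3 above background on every array, Slc7a5, its partner Slc3a2 and Slc7a6, rose in T. Of 8 measured, the other 5 were at background on every array. In all, 3 rose and 2 fell in T, and 2 rose and 1 fell in PT, with median differences of 0.36 and 0.40. The share called over all probe sets was 32.4% in T and 35.9% in PT. Slc7a5, the main exchanger for leucine in many proliferating cells, was at 14.14 and 14.41 in mVec, 15.96 and 16.19 in T, and 15.97 and 16.22 in PT. It rose 3.49-fold in T (1.80 ± 0.22, limma adjusted p = 0.000132) and 3.54-fold in PT (1.82 ± 0.22, adjusted p = 9.47e-05). Slc7a6, an exchanger of neutral and basic amino acids, rose 6.17-fold in T (2.63 ± 0.20, adjusted p = 6.87e-06) and 7.56-fold in PT (2.92 ± 0.20, adjusted p = 2.41e-06). The uniporters Slc43a2 (mean 4.69 for T, 4.83 for PT, 8.73 for mVec) and Slc43a1 (4.31, 4.84 and 5.47) were at background in each group. Slc43a2 was called lower in both Kit lines (limma adjusted p = 5.53e-07 and 4.52e-07) and Slc43a1 in T (0.00296) but not in PT (0.0579). The PT count of this list rose from 3 to 5 when arrays were centred on their medians.

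Genes that sense leucine or load branched-chain amino acids onto tRNA were also measured. Of 10, 4 rose and 2 fell in T, and 6 rose and 3 fell in PT, with median differences of 0.32 and 1.30. The share called over all probe sets was 32.4% in T and 35.9% in PT, and 56.5% and 62.3% among those with a mean above the median. Lars1, the cytosolic leucyl-tRNA synthetase, was at 11.92 and 11.90 in mVec, 14.88 and 14.89 in T, and 14.77 and 14.88 in PT. It rose 7.89-fold in T (2.98 ± 0.20, limma adjusted p = 2.46e-06) and 7.57-fold in PT (2.92 ± 0.20, adjusted p = 1.91e-06). The valyl-tRNA synthetase Vars1 rose 10.4-fold in T (3.37 ± 0.26, adjusted p = 6.14e-06) and 5.99-fold in PT (2.58 ± 0.26, adjusted p = 2.59e-05). The sestrins did not share a direction. Sesn1, a leucine sensor upstream of mTORC1, was at least 4.32-fold lower in T (-3.32 ± 0.22, limma adjusted p = 2.86e-06) and at least 3.81-fold lower in PT (-3.48 ± 0.22, adjusted p = 1.47e-06). The related Sesn3 fell 18.0-fold in T (-4.17 ± 0.20, adjusted p = 3.64e-07) and at least 25.4-fold in PT (-5.48 ± 0.20, adjusted p = 5.24e-08). Sesn2, named here after its values were seen, was at background in mVec and rose at least 1.59-fold in T (2.63 ± 0.24, limma adjusted p = 1.91e-05) and at least 1.13-fold in PT (2.13 ± 0.24, adjusted p = 5.69e-05).

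Genes of glutamate and 2-oxoglutarate, the partners of the aminotransferase reaction, included large rises of other aminotransferases. Of 11 measured genes, 5 rose and 3 fell in T, and 6 rose and 3 fell in PT, with median differences of 0.58 and 1.34. The other 4 of the list are not analysed here. The share called over all probe sets was 32.4% in T and 35.9% in PT, and 56.5% and 62.3% among those with a mean above the median. Got1, the cytosolic aspartate aminotransferase, was at 9.63 and 9.75 in mVec, 15.21 and 15.02 in T, and 14.72 and 15.03 in PT. It rose 42.9-fold in T (5.42 ± 0.21, limma adjusted p = 1.21e-07) and 36.3-fold in PT (5.18 ± 0.21, adjusted p = 1.06e-07). Gpt2, the mitochondrial alanine aminotransferase, was at 9.52 and 9.60 in mVec, 13.88 and 14.26 in T, and 13.84 and 13.98 in PT. It rose 22.8-fold in T (4.51 ± 0.22, adjusted p = 3.88e-07) and 20.4-fold in PT (4.35 ± 0.22, adjusted p = 3.29e-07).

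Oat, ornithine aminotransferase, was the member of this list with the largest fall in T, from 13.47 and 13.42 in mVec to 10.49 and 10.37, and stood at 9.94 and 10.59 in PT. Oat was 8.09-fold lower in T (-3.02 ± 0.25, limma adjusted p = 1.03e-05) and 9.06-fold lower in PT (-3.18 ± 0.25, adjusted p = 5.05e-06). Idh1, which makes 2-oxoglutarate from isocitrate in the cytosol, was at 12.21 and 11.75 in mVec, 10.60 and 10.45 in T, and 8.39 and 8.12 in PT, with no overlap between the 3 groups. It fell 2.74-fold in T (-1.45 ± 0.23, limma adjusted p = 0.000807) and at least 7.82-fold in PT (-3.73 ± 0.23, adjusted p = 1.20e-06).

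**Figure D3:**
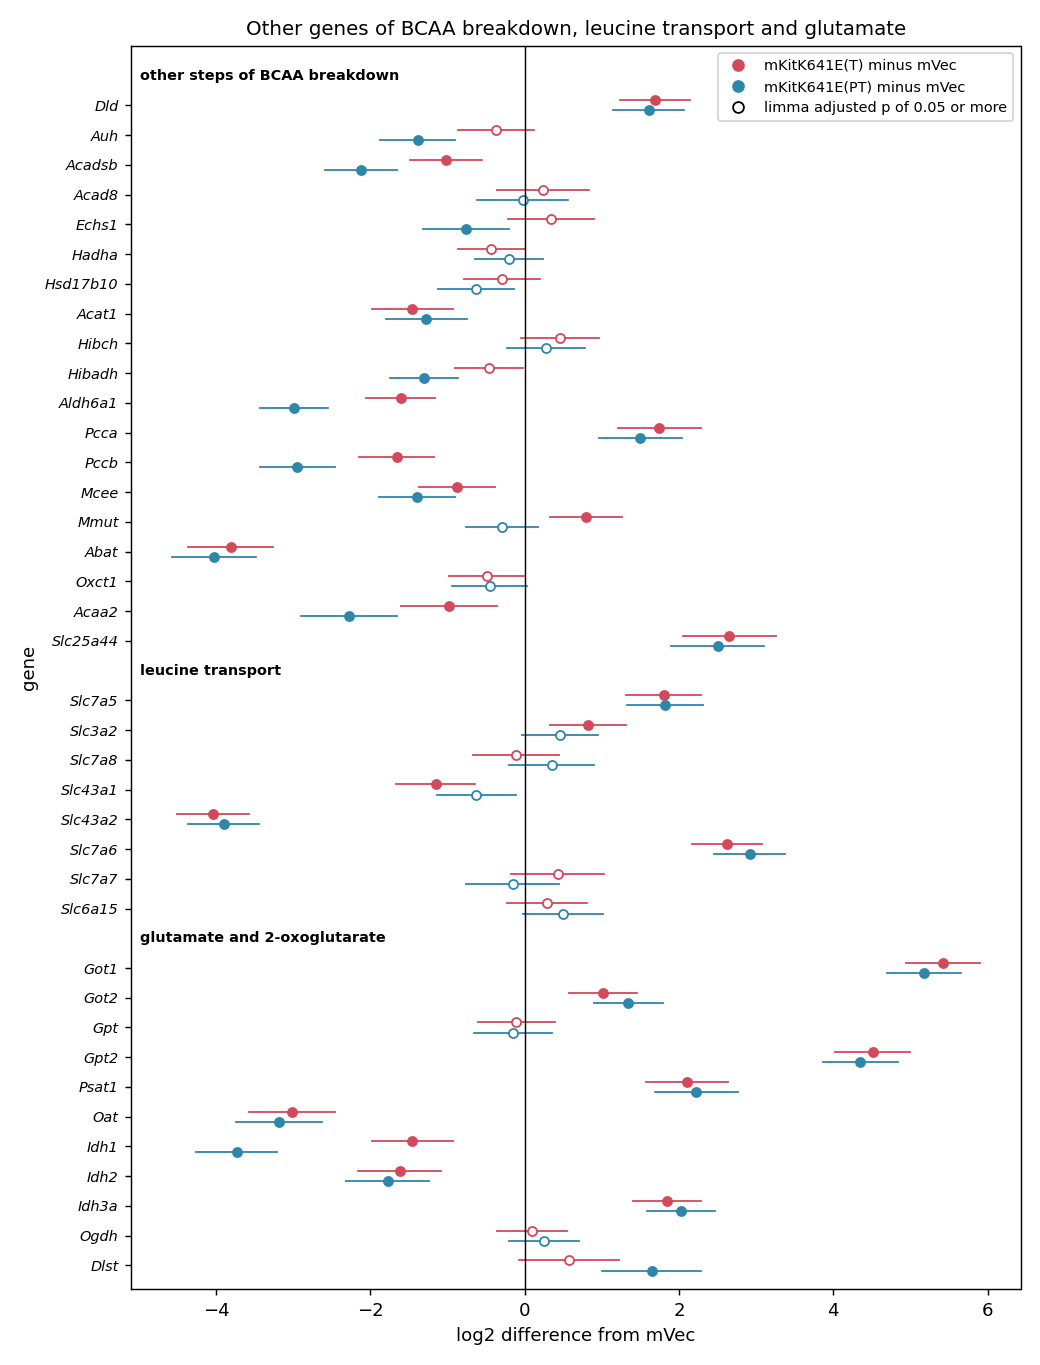
Log2 differences of T and PT from mVec (horizontal axis) for the measured genes (vertical axis) of 3 lists, 19 of other breakdown steps, 8 of leucine transport and 11 of glutamate and 2-oxoglutarate; points are estimates from 2 arrays per group, lines are 95% intervals of the limma fit, and open points were not called. Got1 and Gpt2 lie farthest to the right, between 4.35 and 5.42, and Abat and Slc43a2 farthest to the left, between -4.04 and -3.81.

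Of 10 described regulators of BCAT1 or of branched-chain amino acid breakdown, 3 rose and 2 fell in T, and 2 rose and 1 fell in PT. The median differences were 0.08 and -0.02. The share called over all probe sets was 32.4% in T and 35.9% in PT, and 56.5% and 62.3% among those with a mean above the median. Of the 10 regulators, 4 were at background on every array. Myc was at 13.21 and 13.33 in mVec, 15.32 and 15.46 in T, and 15.58 and 15.89 in PT. It rose 4.35-fold in T (2.12 ± 0.21, limma adjusted p = 3.64e-05) and 5.52-fold in PT (2.46 ± 0.21, adjusted p = 9.53e-06). Atf4, the transcription factor of amino acid stress, rose 2.67-fold in T (1.42 ± 0.21, adjusted p = 0.000493) and 2.52-fold in PT (1.33 ± 0.21, adjusted p = 0.000617). Klf15, which controls Bcat2 and other genes of the pathway in muscle, was at background in each group (mean 8.40 for T, 6.72 for PT and 6.89 for mVec). It was called higher in T (1.52 ± 0.23, limma adjusted p = 0.000508), and its PT difference of -0.16 ± 0.23 (adjusted p = 0.658) turned positive when arrays were centred on their medians or quantile normalized. Ppargc1a, a coactivator of mitochondrial genes, was also at background (mean 4.57 for T, 4.96 for PT and 6.51 for mVec) and was called lower in T and PT (limma adjusted p = 0.000795 and 0.00276). The rest of the list is named after its values were seen. Smad5 was lower in T (-0.82 ± 0.19, limma adjusted p = 0.00902) and not called in PT (0.0557). Mycn, Hif1a, Ezh2, Msi2 and Mlxipl were called in neither line.

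Genes with a pattern like that of Bcat1 were looked up by the root mean square distance of their 6 log2 values, each taken minus the gene's mVec mean, from those of Bcat1. The nearest was Phlda2, an imprinted growth regulator, at a distance of 0.30, followed by Gprc5a, a receptor induced by retinoic acid (0.40), Foxr2, a forkhead transcription factor (0.49), Tnfrsf10b, a death receptor (0.79), Pde3b, a cyclic nucleotide phosphodiesterase (0.86), Crabp2, a retinoic acid binding protein (1.05), the choline kinase Chka (1.34) and the copine Cpne8 (1.38). All 8 were at background in mVec and above background on all 4 Kit arrays. Their differences from mVec lay between 6.36 and 9.35 in T and between 6.42 and 9.35 in PT. T minus PT, which was -0.16 for Bcat1, ranged among the 8 from -1.54 for Tnfrsf10b to 1.19 for Crabp2. These genes were chosen for likeness over 6 arrays from 3 lines, so the values are a description.

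**Figure D4:**
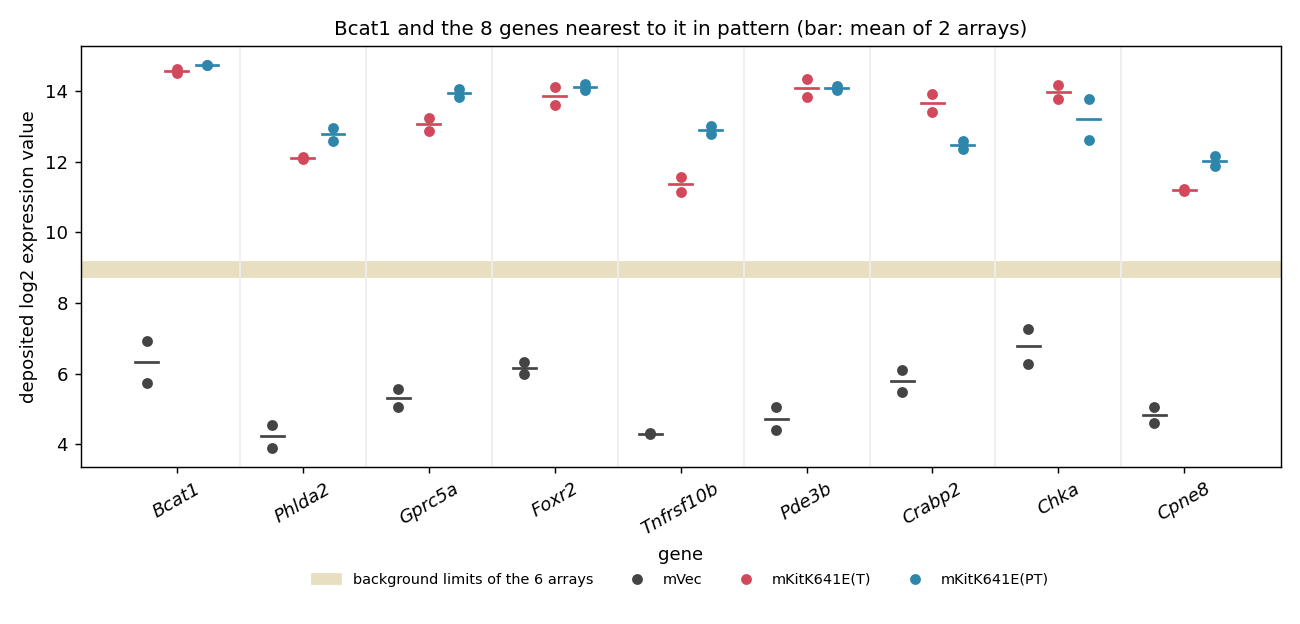
Deposited log2 values (vertical axis) of Bcat1 and the 8 genes nearest to it in pattern (horizontal axis) on each of the 6 arrays; points are arrays, bars are means of 2 arrays, and the band spans the background limits, 8.74 to 9.16. Every mVec point lies below the band and every T and PT point above it.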

How the data were processed

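Affymetrix Clariom S arrays, which number 2 for each of 3 lines, were deposited as 1 table of values that their range shows to be on a log2 scale, with similar distributions on every array. The normalization, software, background correction and genome build are not stated in the labels or the file. Values were used as deposited, with no filter; 6640 control rows were left out of the tests, and 2634 of 22206 gene probe sets have no symbol. One linear model with a mean per group was fitted in R 4.3.3 with limma 3.58.1 (3 residual degrees of freedom, prior 6.36), two-sided, with Benjamini-Hochberg adjustment within each comparison, and was tested on simulated data. The number of arrays limits the precision. The genes, lists and alternatives were chosen with earlier results of these data known. Named were all 10 genes, up to 4 called genes of each further list by the larger difference from mVec, and the 8 nearest to Bcat1 in pattern, after removal of predicted genes, olfactory receptors and small RNAs. The labels do not say whether replicate numbers pair the arrays, and the main fit did not pair them. Deviations of same-numbered arrays from the group mean correlated at 0.082 (T with PT), 0.043 (T with mVec) and 0.040 (PT with mVec). With 2 arrays per group these values cannot settle whether arrays were paired. Alternatives were another scaling, a filter on low means, a variance trend, the 2 compared groups alone, a replicate block, a stricter background limit and leaving out each array. Promoter letters are from RefSeq, build GRCm38.p6.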

Additional observations from a re-analysis of the deposited data

Results flagged for a closer look

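The changes of the Kit lines against mVec differed from each other, by the limma test of T minus PT, for 2 of the 9 genes other than Bcat1. The difference was 1.24 for Bckdhb (adjusted p = 0.0110) and 1.54 for Bckdk (adjusted p = 0.00438). Among the other named genes of the pathway it was 1.38 for Aldh6a1 (limma adjusted p = 0.00413), 1.29 for Pccb, at background in both Kit lines (0.00767), 1.31 for Sesn3 (0.00529), 2.28 for Idh1 (0.00108) and 1.68 for Klf15, at background in each group (0.00314). Among the markers it was 0.97 for Gpnmb (limma adjusted p = 0.0173), 2.38 for Col3a1 (0.00176) and 2.02 for Fap, at background in both Kit lines (0.00746). Bckdk, Aldh6a1, Sesn3, Idh1 and Col3a1 were at background in PT. Bckdhb was no longer called when T replicate 2 (adjusted p = 0.0762) or PT replicate 1 (0.0917) was left out, and Pccb likewise (0.0547 and 0.0673). Fap was not called once T replicate 2 was left out (0.0659), nor Gpnmb once T replicate 2 (0.0817), PT replicate 1 (0.112) or PT replicate 2 (0.0624) was. Over all probe sets 8.36% were called in this comparison.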

How the results depend on the processing

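The 10 genes have 300 log2 differences under the alternatives: 253 kept their direction and side of the threshold, 27 lost a call, 8 gained one, 8 changed sign and 4, of Bcat1 without 1 mVec array, moved by more than the replicate spread. None of the sign changes touched a called difference. T minus PT became -0.18 for Bckdha and -0.10 for Ivd after quantile normalization; without 1 array, Bckdha ranged from -0.092 to 0.16 and Ivd from -0.12 to 0.15. PT minus mVec ranged without 1 array from -0.19 to 0.611 for Mccc1, from -0.026 to 0.341 for Bckdhb and from -0.327 to 0.0027 for Klf15, which stood at 0.025 with median centring and 0.24 after quantile normalization. Without 1 array, Bcat1 ranged from 7.65 to 8.84 in T and from 7.81 to 8.997 in PT.

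Over all probe sets, 7201 were called in T, 7975 in PT and 1857 between T and PT; without 1 array the counts ranged from 5619 to 6995, from 6468 to 6907 and from 549 to 1714. Among the 9 genes other than Bcat1 they ranged from 4 to 7, from 3 to 5 and from 1 to 3, and among probe sets above the median mean 4 were called between T and PT. A group left with 1 array is assumed to vary like the others. Centring each array on its median raised the median difference over all probe sets from 0.01 to 0.20 in T and from 0.08 to 0.27 in PT, and the share of calls that were higher from 52.3% to 62.3% and from 49.9% to 60.3%. With the 99th percentile as background limit, 2 of the 10 genes were above background on both arrays in T, 2 in PT and 0 in mVec, in place of 6, 4 and 4; the stricter limit itself makes these counts lower. The replicate block, built on numbers that the labels do not explain, gave 7330, 8054 and 1819 calls. Of the 9 genes it called 8, 6 and 3, with Mccc1 gained between T and PT (limma adjusted p = 0.0453). No gene of the 10 has a second probe set, so the alternative of averaging probe sets was not run. The cause of these changes was not tested.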
